A study of Mus musculus with 9 samples.

Results

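The MYC, MAX and MXD network comprises 10 genes: the MYC genes Myc, Mycn and Mycl, their shared partner Max, the repressors Mxd1, Mxi1, Mxd3 and Mxd4, and the further MAX partners Mnt and Mga. They were taken from the count table by gene symbol (GENCODE names of the GRCm38 build), and all 10 were found among its 20189 genes and entered the test, which covered 20143 genes. The cells were E14 mouse embryonic stem (ES) cells, a wild type line grown on gelatin with serum and leukaemia inhibitory factor. Poly(A)-selected mRNA was sequenced from 3 groups with 3 libraries each: Cys-starved, Thr-starved and unstarved cells. The starved cells were kept for 3 h in medium lacking the named amino acid, and the unstarved cells had 0 h of starvation. For this experiment the paper does not state whether the unstarved cells were also moved to fresh medium with all amino acids. If they were not, an effect of the medium change cannot be told apart from that of starvation. Cys is needed for glutathione synthesis as well as for translation, and mouse ES cells depend on Thr catabolism, so the comparison asked how the transcriptome of the same cells answered the loss of each amino acid. Nothing in the labels says that the 3 libraries of a group came from separate cultures, so the p-values measure only the spread between these libraries, which may be technical.

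MYC proteins are basic helix-loop-helix leucine zipper factors that activate genes for growth, ribosome production and metabolism, and they bind DNA only as heterodimers with MAX, most readily at the E-box CACGTG. MXD proteins and MNT compete for MAX and recruit SIN3 and histone deacetylases to the same sites, where they repress. MGA also pairs with MAX, in the polycomb complex PRC1.6, which keeps germline genes silent in ES cells. MYC supports self-renewal in mouse ES cells, in which Mycn can take the place of Myc, and both the Myc mRNA and its protein turn over quickly.

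In the 250 bases before and 50 bases after the transcription start (RefSeq promoters, GRCm38.p6), 9 of the 10 network genes had an entry and together gave 11 windows, because Mxi1 has several starts. Myc had no entry. The E-box CACGTG, which reads the same on both strands, lay in 3 of these 11 windows, compared with 7.15% of all 32851 promoters. The 3 sites are shown with 12 bases on each side because they are where network proteins could bind the network's own genes, and the capitals mark the E-box. The Mxd4 and Mnt stretches end before the RefSeq start, and 15 bases of the Max stretch lie past it. None of the stretches overlaps an exon of its gene in the GENCODE M21 annotation. The Mxd4 stretch is chr5:34187912-34187941 on the minus strand, with the E-box 219 bases before the start. The Mnt stretch is chr11:74830789-74830818 on the plus strand, 123 bases before the start, and the Max stretch is chr12:76962234-76962263 on the minus strand, with an E-box that begins 3 bases before the start and spans it.
Mxd4: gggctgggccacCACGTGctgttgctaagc
Mnt: ccccacccaagcCACGTGtgcgcgcgcggt
Max: ggtgagcccggtCACGTGttagggggccga
The C/EBP-ATF element TGATGCAAT, the kind of site used by the amino acid response factor ATF4, was searched for on both strands. It was in 0 of the 11 windows and in 0.192% of all promoters. A match, or its lack, describes these letters in this window only.

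The libraries held 48763102 to 74962733 counts each. Among genes with few counts, pairs of libraries of the same group gave a chi-square of 1.98 to 2.13 per gene, close to the value of 2 that counting alone gives when both ends of a fragment are counted. Among genes with at least 2000 counts in a pair it was 3.25 to 16.2 per gene as a mean, above that value in all 9 pairs. The median over the same genes was 1.22 to 1.85, to which the value of 2, that of a mean, does not apply. All 8 ES cell markers, among them Pou5f1, Nanog and Sox2, were present at means over all 9 libraries of 190.0 to 821.2 CPM (counts brought to one common library total, with the trimmed mean of M-values, TMM, as the scaling). Their summed level was 3845.0 to 3881.9 CPM in the unstarved, 3724.9 to 3743.9 CPM in the Cys-starved and 4137.2 to 4225.6 CPM in the Thr-starved libraries. The single markers moved both ways against the unstarved libraries: 5 were higher and 3 lower without Thr, and 3 higher and 5 lower without Cys. As group means, Nanog went from 282.7 CPM unstarved to 211.5 CPM without Thr, and Pou5f1 from 849.1 to 756.8 CPM. Sox2 went from 396.7 CPM unstarved to 537.1 CPM without Thr. Markers of other lineages were low. The 3 measured mesoderm markers summed to 5.91 to 7.49 CPM in the unstarved and 2.63 to 2.83 CPM in the Thr-starved libraries. The 3 neuroectoderm markers summed to 19.2 to 20.4 CPM in the unstarved, 23.8 to 25.3 CPM in the Cys-starved and 27.5 to 31.5 CPM in the Thr-starved libraries. Primitive endoderm, trophoblast, feeder and 2-cell-like markers stayed between 0.734 and 14.9 CPM in sum in every library, and no marker listed for these types and found in the table was at 0 in all libraries. The part these cells play in the results was not tested.

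Under Thr starvation Myc fell to 0.395 of its unstarved level and Mxi1 to 0.341, while Mxd1 rose 2.04-fold and Mga 2.12-fold. Mycl, Mxd3, Mxd4, Mnt and, by a small amount, Mycn fell too, and Max was not called. In the edgeR quasi-likelihood test 9 of the 10 genes were called at an adjusted p of 0.05 or less, 2 higher and 7 lower. The background was high: 63.0% of all genes tested were called in this comparison, 31.1% higher and 31.9% lower. With offsets for GC content and transcript length, by which any dependence of a library's counts on these gene properties is taken out, 7 of the 10 were called, 2 higher and 5 lower, beside 12644 of all 20143 genes. For 9 of the 10 the libraries of both groups stood apart, beside 66.5% of all genes. The median log2 fold change was -0.45 over the 10 genes and -0.02 over all genes. A change of at least 1 on the log2 scale, with a call, was seen for 4 of the 10 (Myc, Mxi1, Mxd1 and Mga), compared with 13.2% of all genes. In bulk RNA, fewer cells expressing a gene and less of its RNA per cell cannot be told apart.

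After Cys starvation the estimated change was smaller than after Thr starvation for 8 of the 10 genes, the exceptions being Max and Mxd3. With the GC and length offsets, Mycn (-0.18 without Cys, -0.04 without Thr) and Mnt (-0.17 and -0.14) became exceptions too. The test called 8 of the 10, with Mxd1, Mxd4 and Mga higher and Myc, Mycn, Max, Mxd3 and Mnt lower. None of the 10 reached a log2 change of 1, and of all genes only 1.47% did so with a call. Of all genes, 36.3% were called, 17.5% higher and 18.8% lower (3523 and 3790 genes). With the deposited size factors this split was 2787 higher and 4786 lower. Libraries of the 2 groups did not overlap for 7 of the 10, beside 46.4% of all genes. The median log2 fold change was -0.14 over the 10 genes and 0.01 over all genes. Tested directly, Thr-starved and Cys-starved libraries differed for 8 of the 10 genes, with Max, Mxd1 and Mga higher and Myc, Mycl, Mxi1, Mxd4 and Mnt lower in the Thr-starved ones, against 62.0% of all genes called (30.4% higher, 31.6% lower). Their libraries did not overlap for 8 of the 10, beside 65.8% of all genes. Both starvations were measured against the same 3 unstarved libraries, so their changes are not independent of each other.

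**Figure D1:**
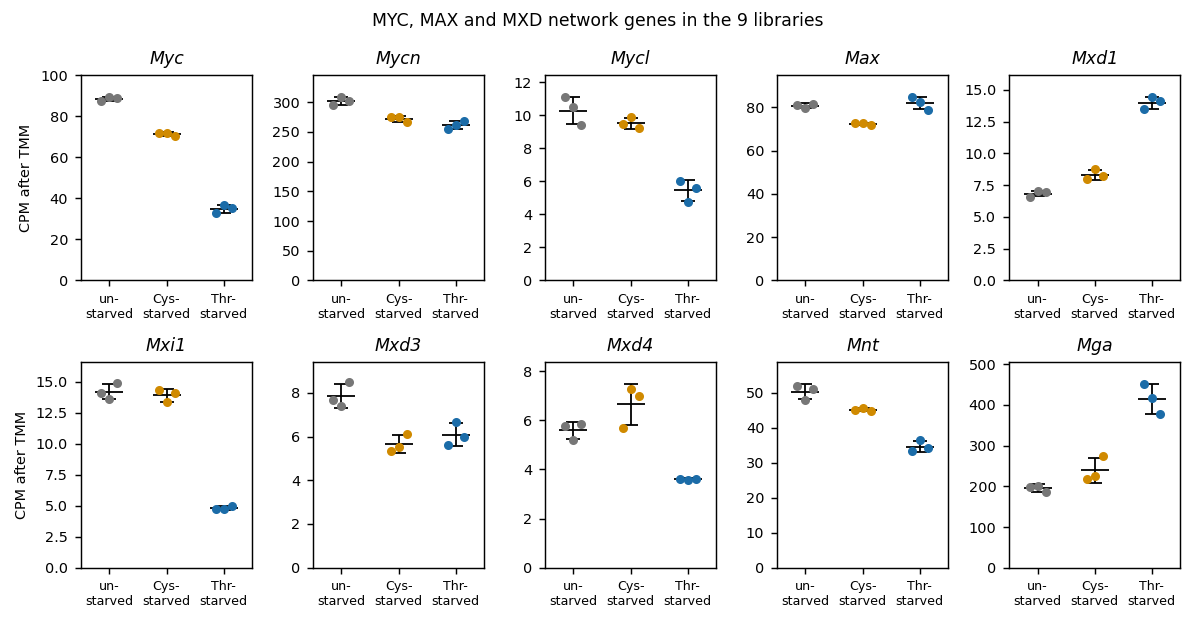
Level of each network gene in CPM after TMM scaling (vertical axes, each starting at 0) in the 3 unstarved, 3 Cys-starved and 3 Thr-starved libraries. Each point is 1 library, the long bar the group mean and the whiskers 1 SD; Myc and Mxi1 sit far lower and Mxd1 and Mga far higher in the Thr-starved group, with no overlap with the unstarved libraries.

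Myc, an immediate early gene induced by growth factors, lies on chromosome 15 (61985391 to 61990374, plus strand; ENSMUSG00000022346). It was measured at 87.4, 89.3 and 89.0 CPM in the unstarved libraries, at 71.9, 71.7 and 70.3 CPM in the Cys-starved libraries and at 32.7, 36.7 and 35.4 CPM in the Thr-starved libraries. The 3 groups formed 3 separate bands, unstarved highest and Thr-starved lowest. The log2 fold change was -1.34 ± 0.036 (SE) after Thr starvation (95% interval -1.42 to -1.27, adjusted p = 8.8e-19) and -0.31 ± 0.034 after Cys starvation (adjusted p = 1.5e-07). Between the starved groups it was -1.03 ± 0.036 (adjusted p = 1.3e-16), so the fall was larger without Thr than without Cys.

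Mycn, the MYC gene known for its high expression in embryonic cells, lies on chromosome 12 (12936093 to 12941914, minus strand; ENSMUSG00000037169). Its level was 295.9, 309.7 and 302.6 CPM in the unstarved libraries, 276.0, 274.4 and 266.2 CPM in the Cys-starved ones and 255.3, 262.0 and 268.9 CPM in the Thr-starved ones. Every starved library was below every unstarved library, and the starved groups overlapped each other. The decrease was small: the log2 fold change was -0.21 ± 0.025 without Thr (adjusted p = 1.5e-07) and -0.15 ± 0.025 without Cys (adjusted p = 3.6e-05). The direct difference of -0.05 ± 0.025 was not called (95% interval -0.11 to -0.00, adjusted p = 0.064). With the GC and length offsets the Thr change was -0.04 and no longer called (adjusted p = 0.12), and the direct difference turned to 0.14 (adjusted p = 5.8e-06).

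Mycl lies on chromosome 4 (122995652 to 123002485, plus strand; ENSMUSG00000028654) and encodes the family member that activates transcription most weakly. Unstarved libraries had 11.1, 10.5 and 9.42 CPM, Cys-starved libraries 9.46, 9.89 and 9.24 CPM, and Thr-starved libraries 6.04, 4.78 and 5.59 CPM. The Thr-starved libraries were all lower than the other 6, which overlapped. Mycl fell by 0.92 ± 0.086 on the log2 scale without Thr (adjusted p = 2.7e-09), whereas its change without Cys, -0.12 ± 0.079, was not called (95% interval -0.28 to 0.05, adjusted p = 0.27). The starved groups differed by -0.80 ± 0.086 (adjusted p = 3.0e-08).

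Per kilobase of merged exons, Mycn was the leading MYC transcript in every library. In the unstarved libraries Mycn contributed 72.0 to 72.6% of the summed level of the 3 genes, Myc 25.4 to 25.8% and Mycl 1.84 to 2.2%. The Myc share was 23.5 to 23.7% in the Cys-starved and 13.2 to 14.3% in the Thr-starved libraries, and the Mycn share 74.2 to 74.4% and 84.4 to 85.1%. The summed level was 124.7 to 129.5 CPM per kilobase unstarved, 108.9 to 112.6 without Cys and 91.0 to 96.0 without Thr. The MYC transcript pool was thus smallest in the Thr-starved libraries and was there made up more of Mycn and less of Myc. The summed level of Mxd1, Mxi1, Mxd3, Mxd4 and Mnt, the MAX-binding repressors, was 17.0 to 18.5, 15.9 to 16.3 and 12.6 to 13.8 CPM per kilobase in the same order. The ratio of the MYC sum to this repressor sum was 6.87 to 7.59 unstarved, 6.67 to 7.08 without Cys and 6.81 to 7.36 without Thr, ranges that overlap although both sums were lower in the Thr-starved libraries than in the unstarved ones. Mnt made up 59.8 to 61.9% of the repressor sum unstarved, 59.4 to 61.3% without Cys and 56.4 to 57.1% without Thr. These sums carry no offset for GC content. With the fold changes of the fit with GC and length offsets, in which Mnt changed by -0.14 and Mycn by -0.04 without Thr, the Thr-starved MYC sum was 104.7 CPM per kilobase and most of the fall of the repressor sum was gone. The ratio was then 6.54 without Thr and 6.86 without Cys, beside 7.1 for the unstarved group means. These are single values per group with no spread. These are transcript levels and say nothing of the amounts of protein.

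**Figure D2:**
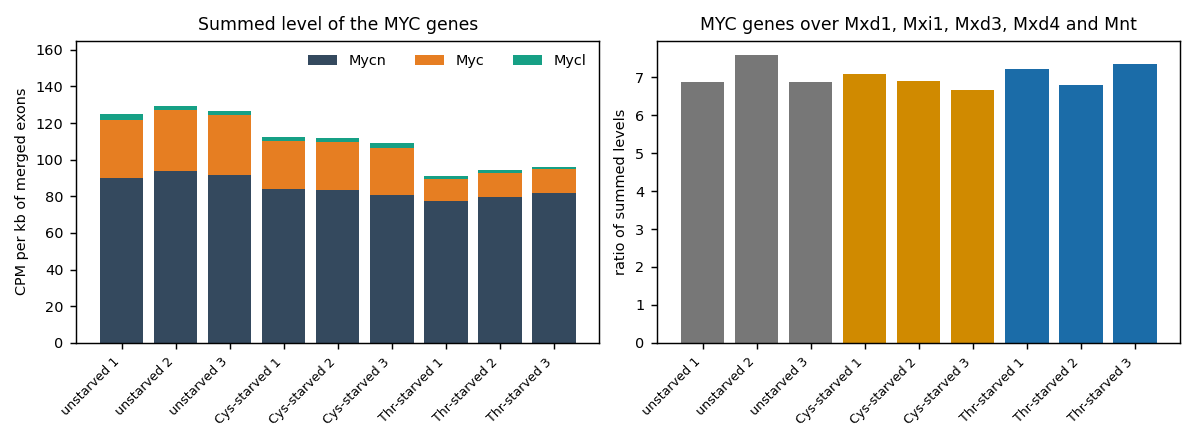
Left, summed CPM per kilobase of merged exons of Mycn, Myc and Mycl, stacked, in each of the 9 libraries. Right, the ratio of that sum to the summed CPM per kilobase of Mxd1, Mxi1, Mxd3, Mxd4 and Mnt. The Myc segment shrinks in the Thr-starved libraries to 13.2 to 14.3% of the bar, while the ratio, with no offset for GC content, lies between 6.67 and 7.59 in all 9 libraries.

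Max, the common partner of the other proteins of the network, lies on chromosome 12 (76937269 to 76962201, minus strand; ENSMUSG00000059436). It was at 81.0, 79.5 and 81.6 CPM unstarved, at 72.5, 72.8 and 71.9 CPM without Cys and at 84.7, 82.6 and 78.9 CPM without Thr. The Cys-starved libraries were lowest and stood apart, and the other groups overlapped. Max was the only gene of the 10 not called after Thr starvation, with a log2 fold change of 0.02 ± 0.03 whose 95% interval ran from -0.04 to 0.09 (adjusted p = 0.54), and its sign turned with the GC and length offsets (-0.02). It fell by 0.16 ± 0.03 without Cys (adjusted p = 2.4e-04), and the direct difference was 0.18 ± 0.03 (adjusted p = 1.9e-05).

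The MXD genes did not move as one. Mxd1, whose protein accumulates when cells stop dividing and differentiate, lies on chromosome 6 (86647042 to 86669161, minus strand; ENSMUSG00000001156). Its libraries gave 6.58, 7.02 and 6.94 CPM unstarved, 7.97, 8.73 and 8.22 CPM without Cys and 13.5, 14.4 and 14.1 CPM without Thr. The groups were stepwise higher with no overlap. The log2 fold change was 1.03 ± 0.067 without Thr (adjusted p = 5.3e-12), 0.28 ± 0.07 without Cys (adjusted p = 0.0029) and 0.75 ± 0.065 between them (adjusted p = 8.5e-10).

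Mxi1, a repressor that also pairs with MAX and binds SIN3, lies on chromosome 19 (53310518 to 53375810, plus strand; ENSMUSG00000025025). It showed 14.1, 13.6 and 14.9 CPM unstarved, 14.3, 13.4 and 14.1 CPM without Cys, and 4.73, 4.76 and 4.99 CPM without Thr. The unstarved and Cys-starved libraries were interleaved, and the Thr-starved libraries lay far below both. This was the largest decrease of the 10 genes, at -1.55 ± 0.069 on the log2 scale (adjusted p = 5.4e-15), with -1.52 ± 0.069 against the Cys-starved libraries (adjusted p = 9.1e-15). For Cys starvation the value was -0.03 ± 0.06 with a 95% interval of -0.15 to 0.09 (adjusted p = 0.75). Mxi1 shares 194 exon bases with Gm10197 on the opposite strand, which is not a row of the table used here.

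Mxd3, the MXD gene known to be expressed in cells in S phase, lies on chromosome 13 (55325168 to 55329823, minus strand; ENSMUSG00000021485). It had 7.69, 7.40 and 8.48 CPM unstarved, 5.35, 5.50 and 6.12 CPM without Cys, and 5.63, 6.65 and 5.98 CPM without Thr. Both starved groups were below the unstarved one and overlapped each other. The log2 fold changes were -0.37 ± 0.087 without Thr (adjusted p = 7.7e-04) and -0.47 ± 0.086 without Cys (adjusted p = 1.3e-04), and the direct difference of 0.10 ± 0.089 was not called (95% interval -0.08 to 0.29, adjusted p = 0.32). With the GC and length offsets the Thr change was -0.18 and lost its call (adjusted p = 0.075), and the direct difference became 0.32 (adjusted p = 0.0033). Mxd3 shares 105 exon bases with Prelid1 on the opposite strand, which changed by -0.06 without Thr (adjusted p = 0.029) and -0.18 without Cys (adjusted p = 1.6e-06). The library kit keeps strand, but the strand setting of the counting is not given in the sources used here.

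Mxd4 lies on chromosome 5 (34173883 to 34187720, minus strand; ENSMUSG00000037235) and encodes another MAX partner that binds SIN3, and it was the only gene of the 10 called in opposite directions in the 2 starvations. It had 5.76, 5.18 and 5.84 CPM unstarved, 5.70, 7.26 and 6.98 CPM without Cys, and 3.63, 3.56 and 3.61 CPM without Thr. The Thr-starved libraries lay closely together below all others, while Cys-starved library 1 fell among the unstarved ones. The log2 fold change was -0.63 ± 0.10 without Thr (adjusted p = 1.1e-05) and 0.25 ± 0.094 without Cys (adjusted p = 0.042), and the direct difference was -0.88 ± 0.10 (adjusted p = 6.9e-08). The increase without Cys was at the edge of the test: leaving out Cys-starved library 2 gave 0.18 (adjusted p = 0.21) and leaving out unstarved library 2 gave 0.20 (adjusted p = 0.17). Antisense gene Gm42846, not a row of the table used here, shares 514 exon bases with it.

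Mnt, a broadly expressed antagonist of MYC, lies on chromosome 11 (74830920 to 74845725, plus strand; ENSMUSG00000000282). It was measured at 52.0, 47.8 and 51.0 CPM unstarved, 45.1, 45.7 and 44.9 CPM without Cys and 33.3, 36.5 and 34.1 CPM without Thr. No groups overlapped, with the Thr-starved libraries lowest. Mnt fell by 0.54 ± 0.041 on the log2 scale without Thr (adjusted p = 7.1e-11) and by 0.15 ± 0.04 without Cys (adjusted p = 0.004), and differed by -0.39 ± 0.041 between the starved groups (adjusted p = 2.1e-08). Mnt is the most GC-rich of the 10 genes (59.5% of its longest transcript), and with the GC and length offsets the Thr change was -0.14 (adjusted p = 0.0036) and the direct difference 0.03, not called (adjusted p = 0.55).

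Mga lies on chromosome 2 (119897228 to 119969581, plus strand; ENSMUSG00000033943), encodes a very large protein with a T-box domain besides its MAX-binding domain, and is the most AT-rich of the 10 (GC content 42.2%). Its level was 199.4, 202.0 and 185.0 CPM unstarved, 218.0, 225.5 and 274.4 CPM without Cys and 451.1, 416.2 and 377.1 CPM without Thr. The 3 groups did not overlap, although both starved groups were more spread than the unstarved one. The log2 fold change was 1.08 ± 0.063 without Thr (adjusted p = 5.8e-13), 0.29 ± 0.062 without Cys (adjusted p = 6.9e-04) and 0.79 ± 0.062 between them (adjusted p = 1.4e-10). Without Cys-starved library 3 the Cys change was 0.18, and with the GC and length offsets the changes were 0.76 without Thr and 0.18 without Cys, both still called.

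**Figure D3:**
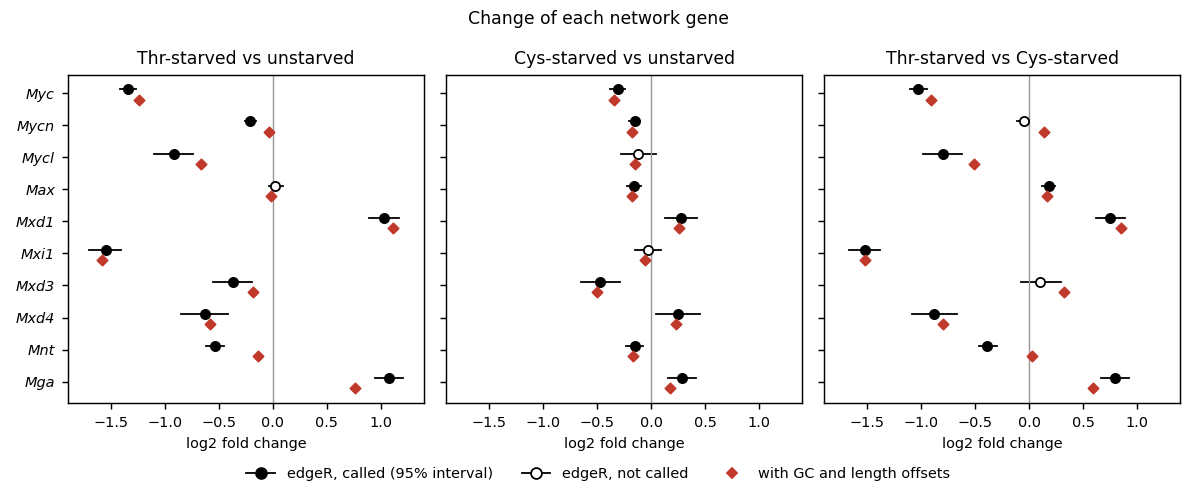
Log2 fold change of each network gene in the 3 comparisons, with its 95% interval (edgeR quasi-likelihood test, filled when called at an adjusted p of 0.05 or less). Red diamonds give the value with offsets for GC content and transcript length. The Thr changes of Myc, Mycl, Mxd1, Mxi1, Mxd4, Mnt and Mga keep their direction and their call with the offsets. That of Mnt shrinks from -0.54 to -0.14, and those of Mycn and Mxd3 lose their call.

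The offsets matter here because the Thr comparison had a trend with base composition, and both comparisons with the unstarved libraries had one with transcript length. The median log2 fold change without Thr was 0.21 for the 20% of genes with the lowest GC content (up to 43.9%) and -0.23 for the 20% with the highest (from 55.3%). Without Cys these medians were 0.04 and -0.02. Mga falls in the first of these classes, and Mnt, Mxd3 (56.5%) and Mycl (55.8%) in the second, so their Thr changes have the sign of the trend. By length of the longest transcript, the Thr medians were -0.04 for the shortest 20% (up to 1306 bases) and 0.08 for the longest (from 4963 bases). Without Cys the medians by length were -0.10 and 0.04. Mga (13931 bases) and Mxi1 (5036 bases) are in the longest class. Whether these trends are technical was not tested. Mycn (54.8%), Myc (53.3%), Mxd1 (50.5%), Mxd4 (49.9%), Max (49.6%) and Mxi1 (46.3%) lie between the 2 GC classes. Lying there does not mean being free of the trend, since the Thr change of Mycn went from -0.21 to -0.04 with the offsets.

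In order of level per kilobase of merged exons, the unstarved libraries ran from Mycn (91.9 ± 2.1 CPM per kilobase, SD, n = 3) through Myc (32.6), Max (22.4), Mga (12.7), Mnt (10.9), Mxd3 (3.32), Mycl (2.56), Mxi1 (2.08) and Mxd1 (0.968) to Mxd4 (0.659). No neighbours in this order overlapped between libraries. In the Cys-starved libraries the order was the same, and only Mxd3 (2.39) and Mycl (2.36) overlapped. In the Thr-starved libraries Mga (27.0) stood next to Mycn (79.5) and above Max (22.8), and Myc (12.9) was in the fourth place. Below Mnt (7.48) and Mxd3 (2.57), Mxd1 (1.98) stood above Mycl (1.35), Mxi1 (0.708) and Mxd4 (0.425), with no overlap between neighbours. The order depends on the length taken for each gene: per kilobase of its longest transcript, Max (41.5) was above Myc (37.9) in the unstarved libraries. By that length Max (42.2), not Mga (29.8), stood next to Mycn (98.0) in the Thr-starved libraries.

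Genes working with the network were described by counts, since their lists were chosen with earlier results known. The counts of every list below stand beside the shares of all genes tested. These shares include genes with few counts, in which a small change is called less readily. Without Thr 63.0% of all genes were called (31.1% higher, 31.9% lower), and without Cys 36.3% (17.5% higher, 18.8% lower). The MLX arm, in which MLX takes the place of MAX for some MXD proteins and for the glucose-responsive factors MLXIP and MLXIPL, had 3 of 3 genes called without Thr and 1 of 3 without Cys. Mlx was at 31.7 ± 1.65 CPM (SD, n = 3) unstarved, 28.1 ± 1.2 without Cys and 24.7 ± 0.275 without Thr, with log2 changes of -0.18 without Cys (adjusted p = 0.0034) and -0.36 without Thr (adjusted p = 3.6e-07). Mlxip fell by 0.56 without Thr (adjusted p = 9.9e-11), and its Cys value was -0.05 (adjusted p = 0.43). Mlxipl, a low gene, rose by 0.48 to 3.75 ± 0.165 CPM without Thr (adjusted p = 0.0021), and its Cys value was 0.13 (adjusted p = 0.47).

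Among 12 coactivators and elongation factors used by MYC, 6 were higher, 3 lower and 3 not called without Thr (median log2 fold change 0.10), and 3 were lower and 8 not called without Cys (median 0.01). Ccnt1 and Cdk9, the cyclin and the kinase of the elongation factor P-TEFb, changed in opposite directions without Thr, by 0.42 and -0.31 (adjusted p = 1.1e-10 and 3.8e-09). Ruvbl1, an ATPase of the TIP60 complex, fell by 0.37 without Thr and by 0.22 without Cys (adjusted p = 6.0e-12 and 2.0e-07). Wdr5, which helps to anchor MYC to chromatin, fell by 0.15 without Cys (adjusted p = 5.6e-05), and its Thr value was -0.04 (adjusted p = 0.22).

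The 6 corepressors of MXD and MNT gave 3 higher, 1 lower and 2 not called without Thr (median 0.06), and 0 higher, 2 lower and 4 not called without Cys (median -0.05). Sin3a, the scaffold that MXD proteins bind, went from 226.5 ± 5.9 CPM unstarved to 208.0 ± 4.69 without Cys and 124.0 ± 1.93 without Thr (log2 changes of -0.12 and -0.87, adjusted p = 5.4e-04 and 6.7e-18). The histone deacetylase genes Hdac2 and Hdac1 rose without Thr by 0.35 and 0.20 (adjusted p = 2.3e-11 and 3.5e-07). Without Cys, Hdac2 fell by 0.10 (adjusted p = 0.0038).

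Of 9 partners of MGA in PRC1.6, 3 were higher and 2 lower in each comparison with the unstarved libraries, with medians of 0.03 without Thr and 0.05 without Cys. Rnf2, the main ubiquitin ligase of the polycomb complexes in ES cells, rose by 0.21 in both (adjusted p = 1.5e-06 without Thr and 4.5e-06 without Cys), and its paralog Ring1 fell by 0.25 without Thr (adjusted p = 0.0063) and rose by 0.21 without Cys (adjusted p = 0.027). Yaf2, a subunit of several such complexes, rose by 0.39 without Thr (adjusted p = 4.1e-04). E2f6, which brings PRC1.6 to DNA, fell by 0.12 without Thr and 0.30 without Cys (adjusted p = 0.046 and 6.1e-05), and Cbx3, a heterochromatin protein, fell by 0.12 without Cys (adjusted p = 5.3e-05). The Thr change of Mga itself, 1.08, lay outside the range of these partners, -0.25 to 0.39.

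The germline genes that MAX and MGA keep silent in ES cells were mostly low. Of the 13 listed, 6 were higher, 1 lower and 6 not called without Thr (median 0.21), and 2 higher, 1 lower and 10 not called without Cys (median -0.07). Meioc, a meiosis gene, rose from 3.57 ± 0.266 to 7.50 ± 0.893 CPM without Thr (1.08, adjusted p = 2.1e-09) and to 4.78 ± 0.235 CPM without Cys (0.42, adjusted p = 0.0024). Smc1b, a meiotic cohesin subunit, rose by 0.65 without Thr and 0.51 without Cys (adjusted p = 1.5e-05 and 6.4e-04), and Ddx4, the germ cell helicase, fell by 0.21 and 0.16 (adjusted p = 0.002 and 0.019). With the GC and length offsets the Thr counts were 2 higher and 3 lower.

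Among 9 genes for MYC turnover and binding, 5 were higher, 1 lower and 3 not called without Thr (median 0.18), and 1 higher, 3 lower and 5 not called without Cys (median 0.02). Of all genes, 63.0% were called without Thr and 36.3% without Cys. Fbxo28, a ubiquitin ligase subunit that acts on MYC, rose by 0.65 without Thr (adjusted p = 1.5e-13), and Zbtb17, which encodes the MYC partner MIZ1, rose by 0.45 (adjusted p = 3.2e-08). Usp28, the deubiquitinase that opposes MYC degradation, fell by 0.51 without Thr and by 0.27 without Cys (adjusted p = 2.9e-13 and 7.5e-08). Aurka, whose kinase stabilises MYCN, rose by 0.21 without Cys (adjusted p = 7.8e-07), and Skp2, a ubiquitin ligase subunit that also acts on MYC, fell by 0.17 (adjusted p = 2.9e-04). Without Thr, Aurka and Skp2 both rose, by 0.32 and 0.17 (adjusted p = 2.3e-10 and 9.1e-05).

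Genes that MYC is known to activate were called lower more often than higher in both starvations. Without Thr 19 of 32 were called lower, 7 higher and 6 were not called (median log2 fold change -0.14), and without Cys 22 were called lower, 4 higher and 6 were not called (median -0.11), beside medians of -0.02 and 0.01 over all genes and 31.9% and 18.8% of all genes called lower. The largest decreases without Thr were those of Ccnd2, a G1 cyclin, from 22.5 ± 1.47 to 6.49 ± 1.28 CPM (-1.77, adjusted p = 4.7e-14) and of Hspd1, the mitochondrial chaperonin, from 1468.5 ± 12.5 to 517.6 ± 4.02 CPM (-1.50, adjusted p = 4.7e-25). Ccnd2 was not called without Cys (0.15, adjusted p = 0.14), whereas Hspd1 fell by 0.34 there (adjusted p = 2.3e-13).

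The largest decreases without Cys were Ldha, lactate dehydrogenase, by 0.44 (adjusted p = 8.0e-14) and Apex1, a DNA repair endonuclease, by 0.37 (adjusted p = 1.3e-08). Ldha fell further without Thr, by 0.71 (adjusted p = 1.9e-18), and Apex1 was not called there (0.06, adjusted p = 0.15). Some MYC-activated genes rose instead. Nop56, a component of the box C/D snoRNP, rose by 0.45 without Thr and 0.21 without Cys (adjusted p = 1.4e-13 and 4.0e-07). Its partner Nop58 rose by 0.42 without Thr and fell by 0.19 without Cys (adjusted p = 3.1e-13 and 1.1e-06). Shmt2, the mitochondrial serine hydroxymethyltransferase, rose by 0.53 without Cys (adjusted p = 2.1e-14) and 0.40 without Thr (adjusted p = 2.7e-13), and Rrp12, a ribosome biogenesis factor, by 0.25 and 0.27 (adjusted p = 1.6e-07 and 1.5e-08).

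Of 7 genes that MYC is known to repress, 3 were higher, 2 lower and 2 not called without Thr (median 0.03), and 2 higher, 3 lower and 2 not called without Cys (median -0.24). Gadd45a, a growth arrest gene, rose from 52.9 ± 2.12 CPM to 92.0 ± 1.69 without Cys and 194.3 ± 1.89 without Thr (0.80 and 1.88, adjusted p = 5.4e-15 and 1.1e-22). Cdkn1a, the p21 cell cycle inhibitor, was at 35.8 ± 1.4 CPM unstarved, 30.4 ± 0.871 without Cys and 113.6 ± 0.953 without Thr, a fall of 0.24 and a rise of 1.66 (adjusted p = 1.6e-05 and 7.3e-21). Cdkn1b, another cell cycle inhibitor, rose in both, by 0.74 without Thr and 0.20 without Cys (adjusted p = 8.2e-15 and 4.6e-05), and Cdkn1c fell by 0.31 without Cys (adjusted p = 0.0014). Ndrg2 fell by 0.74 without Thr and by 0.26 without Cys (adjusted p = 1.7e-08 and 0.0067), and Ndrg1 fell by 0.54 without Thr (adjusted p = 1.5e-06).

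**Figure D4:**
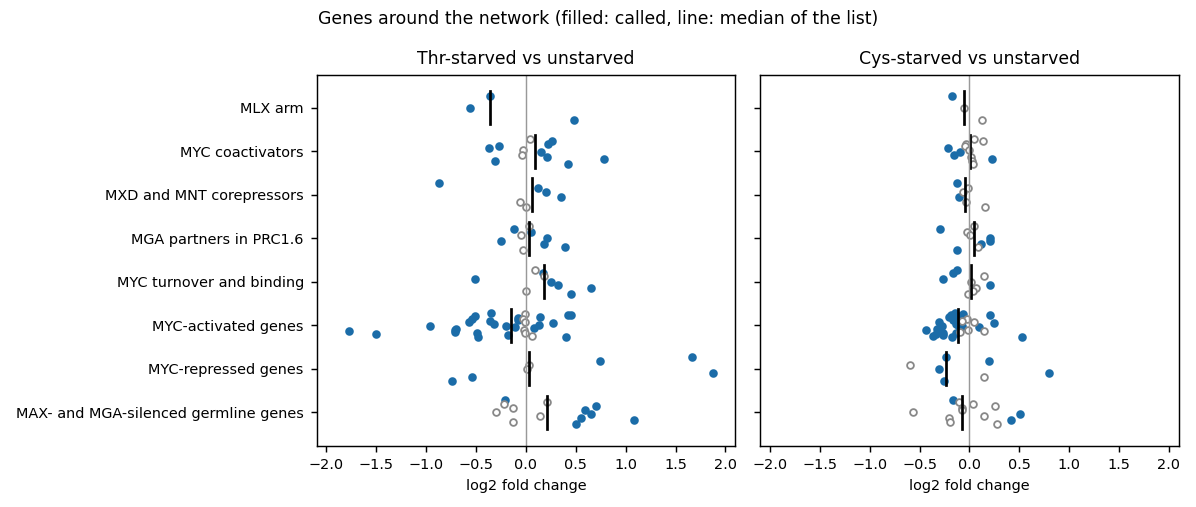
Log2 fold change of each gene of the 8 lists around the network, without Thr (left) and without Cys (right), against the unstarved libraries. Filled points were called at an adjusted p of 0.05 or less, open points were not, and the black line is the median of the list; MYC-activated genes have medians of -0.14 and -0.11.

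The genes closest in pattern to each MYC gene were found among 11410 genes by the root mean square difference of their log2 CPM deviations from the unstarved mean over the 9 libraries. For Myc these were Kcnk1 (0.048), Rarg (0.0496) and Mrps12 (0.0557), with log2 changes of -1.45, -1.35 and -1.41 without Thr and -0.34, -0.27 and -0.29 without Cys. For Mycn they were Nt5dc2 (0.0144), Pomp (0.0226) and Fth1 (0.0248), and for Mycl they were Cdc42ep4 (0.0679), Dyrk2 (0.0691) and Cbr1 (0.0692). These genes were chosen for their likeness, so their changes are a description.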

How the data were processed

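The authors mapped paired-end reads to GRCm38 with STAR 2.7.4a and counted them per gene with HTSeq, per the labels, and deposited these counts without normalization. The deposited normalized signal values are the same counts divided by a constant factor per library, which was checked on the values. The paper describes normalization by a DESeq2 size factor, and how the deposited factors were computed was not checked. In the deposited counts 67.8% of the 28226 values from 1 to 20 are even, a pattern left when both ends of a fragment are counted.

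All 9 libraries (48763102 to 74962733 counts) were fitted together in edgeR 4.0.16 (R 4.3.3) with TMM normalization, genes with at least 1 count in total, the quasi-likelihood F test and Benjamini-Hochberg adjustment over 20143 genes, with calls at an adjusted p of 0.05 or less. The common coefficient of variation was 3.53%. The SE is the log2 fold change divided by the root of F. CPM levels per kilobase used merged GENCODE M21 exons, and 18 of 20189 gene IDs had no entry. Promoters were read from a RefSeq table. The scripts were tested on simulated data. Alternatives were DESeq2 1.42.0, other normalizations, filters and thresholds, GC and length offsets, a replicate block and leaving out each library.

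The network and the lists around it were chosen with earlier results of these data known. Named genes were all 10 network genes and all genes of a list of up to 3. For longer lists they were the 2 largest called increases and 2 largest called decreases in each comparison with the unstarved libraries, at a mean of at least 1 CPM, and for each MYC gene the 3 genes most alike in pattern at a mean of at least 5 CPM. One gene of this rule is not reported here. No set test was run. The Arg and Leu experiment of the same study was not used here.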

Additional observations from a re-analysis of the deposited data

Results flagged for a closer look

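Mxd4 was called in opposite directions in the 2 starvations, at -0.63 ± 0.10 without Thr and 0.25 ± 0.094 without Cys on the log2 scale (edgeR, adjusted p = 1.1e-05 and 0.042). The difference between them, tested directly between the Thr-starved and Cys-starved libraries, was -0.88 ± 0.10 (adjusted p = 6.9e-08), with all 3 Thr-starved libraries below all 3 Cys-starved ones. The increase without Cys does not separate the libraries, since Cys-starved library 1 (5.70 CPM) lies among the unstarved ones (5.18 to 5.84 CPM). The decrease without Thr and the direct difference kept their calls under the alternatives tried.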

How the results depend on the processing

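Of 630 alternative values of the 10 genes' log2 fold changes, 602 kept their direction and their side of the threshold. Of 198 counts of called genes, 196 stayed within 1.5 times. Some alternatives could hardly move a fold change, such as leaving out a library of the group not compared, halving the counts or dropping the filter. The count of 602 is therefore not a measure of how stable the values are. With the GC and length offsets, without and with a replicate block, the Thr changes were -0.04 and -0.04 for Mycn (adjusted p = 0.12 and 0.15), -0.18 and -0.19 for Mxd3 (0.075 and 0.068) and -0.02 and -0.02 for Max (0.66 and 0.69, sign turned). In the direct comparison they were 0.14 and 0.14 for Mycn (5.8e-06 and 2.9e-05, sign turned), 0.32 and 0.31 for Mxd3 (0.0033 and 0.0041, now called) and 0.03 and 0.03 for Mnt (0.55 and 0.57, sign turned), and 5 genes were called higher with either, instead of 3. Mycn in the direct comparison was called at -0.06 with at least 10 counts in every library (adjusted p = 0.026) and at -0.06 with halved counts (0.049), and leaving out 1 library gave -0.07 to -0.03, with calls without Cys-starved library 3 or Thr-starved library 3.

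The increase of Mxd4 without Cys lost its call with the deposited size factors (0.21, adjusted p = 0.09), the GC and length offsets (0.23, 0.07), these with the replicate block (0.22, 0.084) and DESeq2 (0.25, 0.067). Leaving out 1 library gave 0.18 to 0.35, and the call was lost without Cys-starved library 2 or 3 or any 1 of the unstarved libraries. Mxi1 without Cys, not called, ranged from -0.06 to 0.00365 when 1 library was left out, and turned sign without Cys-starved library 2 (0.000353) or unstarved library 3 (0.00365). The cause of these changes was not tested. The share of Myc in the summed MYC level moved from 25.7% to 24.6% in the unstarved libraries when the longest transcript gave the length. The ratio of the MYC sum to the repressor sum without Thr was 7.13 as a mean of libraries and 6.54 with the GC and length offsets, an alternative chosen after seeing the data. Of 192 counts of the lists around the network, 14 moved by more than 1.5 times.

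Same-numbered libraries did not deviate together: over 11410 genes their mean correlation was 0.0145 for Thr-starved and unstarved, -0.0623 for Cys-starved and unstarved and -0.141 for Thr-starved and Cys-starved libraries, so the numbers were not read as pairs. The replicate block alone changed 1 call among the 10 genes, that of Mxd4 without Cys (0.25, adjusted p = 0.054).

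With 3 libraries a group, a coefficient of variation of 3.53% and 170 to 27666 counts for each of the 10 genes, changes such as that of Mycn are measured with an SE of 0.025, and a call says little about size.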
